A study of Mus musculus with 2 samples.

Results

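The transcription factors that mark the helper T cell lineages were followed in lung CD4+ cells of mice through 9 genes chosen by name: Gata3, Tbx21, Foxp3, Bcl6, Maf, Rora, Bhlhe40, Ikzf2 and Prdm1. All 9 were found among the 32285 genes of the deposited single-cell matrices. They were described in T cells, taken as cells with at least 2 UMIs (unique molecular identifiers, each standing for 1 captured RNA molecule) summed over Cd3d, Cd3e and Cd3g and 0 UMIs of the macrophage gene Lyz2. There were 2 droplet libraries, 1 labelled Nfe2l2fl/fl, called the control here, and 1 labelled Cd4cre Nfe2l2fl/fl. Both carry loxP-flanked (fl) alleles of Nfe2l2, which encodes the redox-responsive transcription factor NRF2, and Cd4cre is Cre recombinase made under Cd4 regulatory sequences, so that it acts in cells that have expressed Cd4 and not only in a helper subset. The design text gives the aim of the single-cell experiment as a screen for pathways that NRF2 may control in helper T cells in models of allergic asthma. Mice aged 8 to 15 weeks were used, and lungs were collected 16 h after the final airway dose. The protocol text describes intranasal PAO (7 µg) with Ova (20 µg), a house dust mite model with Der f 1 (1 µg, then 10 µg a dose) and mixed bone marrow chimeras. It does not say which of these gave the libraries, nor how many mice each pools. With 1 library per group there was no test, and every interval below is a 95% interval that covers error from counting and says nothing of how mice vary.

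Naive CD4+ T cells become helper cells of different kinds under cytokine and antigen receptor signals, and each kind is tied to a lineage-defining transcription factor. GATA3, the product of Gata3, drives type 2 helper (Th2) cells that make IL-4, IL-5 and IL-13. T-bet, the product of Tbx21, drives type 1 (Th1) cells that make interferon gamma, while FOXP3 defines regulatory T cells and BCL6 defines follicular helper cells. The other members act beside them. MAF promotes Il10 and is active in several lineages, RORA supports the Th17 programme, and BHLHE40 restrains Il10 and sustains inflammatory cytokine production. Helios, the product of Ikzf2, marks many regulatory T cells, and BLIMP-1, the product of Prdm1, opposes BCL6 and acts in effector and regulatory cells. In the allergic lung Th2 cells are the main source of type 2 cytokines, and regulatory T cells hold the response in check.

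Promoter sequences are shown for the members on which the results turn: Gata3 and Tbx21, the members most raised in cells with Il13 and with Ifng, and Foxp3, which alone passed the fold used between libraries. RefSeq (build GRCm38.p6) gave promoters for 6 of the 9 members. Each sequence is the 250 bases before the annotated start, written 5′ to 3′ on the gene's strand, and capitals mark a GATA core motif (AGATAA or TGATAA, either strand).
Gata3, chr2:9878601-9878850, minus strand: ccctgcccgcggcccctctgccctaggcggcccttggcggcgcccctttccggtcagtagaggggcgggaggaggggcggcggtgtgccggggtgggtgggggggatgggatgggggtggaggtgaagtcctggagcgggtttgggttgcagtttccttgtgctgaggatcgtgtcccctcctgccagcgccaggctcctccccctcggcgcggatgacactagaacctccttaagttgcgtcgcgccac
Tbx21, chr11:97115332-97115581, minus strand: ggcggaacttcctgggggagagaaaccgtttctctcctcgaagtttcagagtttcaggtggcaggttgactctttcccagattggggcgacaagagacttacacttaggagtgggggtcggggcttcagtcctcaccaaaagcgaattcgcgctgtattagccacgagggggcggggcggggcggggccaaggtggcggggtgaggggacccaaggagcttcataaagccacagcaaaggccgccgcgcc
Foxp3 window 1, chrX:7579426-7579675, plus strand: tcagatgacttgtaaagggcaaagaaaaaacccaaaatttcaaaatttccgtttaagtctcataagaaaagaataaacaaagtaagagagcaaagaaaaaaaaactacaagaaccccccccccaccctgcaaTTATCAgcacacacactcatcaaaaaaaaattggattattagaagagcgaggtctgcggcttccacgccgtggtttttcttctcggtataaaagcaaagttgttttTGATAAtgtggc
Foxp3 window 2, chrX:7580233-7580482, plus strand: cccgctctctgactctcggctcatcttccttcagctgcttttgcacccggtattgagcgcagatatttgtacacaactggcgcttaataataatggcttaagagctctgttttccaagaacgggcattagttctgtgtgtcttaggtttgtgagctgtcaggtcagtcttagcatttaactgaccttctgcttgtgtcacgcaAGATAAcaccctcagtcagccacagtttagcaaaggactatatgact
The first Foxp3 window holds the GATA core 118 and 12 bases before its start and the second holds it 47 bases before. Of 32851 promoters in the same table, cut to the same length, 16.6% hold it. The windows of Gata3 and Tbx21 hold none of the 4 motifs searched on both strands, which were the GATA core, forkhead (GTAAACA, 3.17% of promoters), T-box (AGGTGTGA, 1.12%) and E-box (CACGTG, 6.02%). None of these motifs contains another, a match is not a binding site, and no match says only that these letters are not in the window. The Gata3 window is GC-rich (70.0% G or C) and the first Foxp3 window is AT-rich (37.6%), against a median of 52.4% over all promoters. In GENCODE release 21 of the mouse annotation (GRCm38) Gata3 spans chr2:9857078-9890034 and Foxp3 spans chrX:7573644-7595245, so their windows lie inside the annotated gene, upstream of an internal start. Tbx21 spans chr11:97098071-97115331, and its window lies outside the gene.

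Among cells with 500 genes or more and mitochondrial UMIs under 10%, the T cell gate held 4788 of 5433 cells of the control library and 4409 of 6306 cells of the library labelled Cd4cre. Their median depth was 6510.5 and 5666 UMIs. Cd4 was seen in 76.7% and 81.6% of gated cells, Cd8a in 0.272% and 0.476%, and Trac in 82.3% and 78.3%. The summed level of 3 gamma delta T cell genes was 75.9 and 44.4 CPM (UMIs per 1000000 UMIs), that of 2 CD8 genes 15.1 and 19.9, of 6 NK and innate lymphoid genes 2.78 and 4.73, of 5 B cell genes 6.95 and 12.1 and of 11 macrophage genes 181 and 188, with Lyz2 at 0 through the gate. Within the gamma delta sum Trgv2 stood at 60.1 and 32.2 CPM and Tcrg-C1 at 14.5 and 9.99, while Trdc went the other way at 1.29 and 2.20. The macrophage sum was mostly Ctss (151 and 167 CPM, in 60.3% and 57.9% of gated cells). Of its 11 genes 8 were higher in the library labelled Cd4cre, but Chil3 was lower, at 25.7 and 14.4 CPM. The sums thus do not measure how many such cells the gate held. The part of such cells in the results was not tested. Nfe2l2 itself went against the label: it stood at 31.9 CPM in the control library and at 173 CPM in the library labelled Cd4cre. The labels do not say which exons are flanked by loxP sites, so reads from this gene do not check the deletion, and each direction below holds only as far as the label does. The libraries shared 49 barcodes, 29 of them within the gate. Shares of cells with a UMI were taken after thinning each cell to 2000 UMIs, which left 4696 and 4307 cells. As a measure of free RNA the same was done in cells with at least 5 Lyz2 UMIs and no Cd3 UMI (169 and 623 cells after thinning, with median depths before thinning of 2779.5 and 3570.5 UMIs). Gata3 had a UMI in 0 and 7 of these (1.12%), Tbx21 in 0 and 0, and Foxp3 in 0 and 2 (0.321%), and by the limit of 3 counts the 0 of 169 allows a share of up to 1.78%. Ikzf2 was seen in 2.37% and 0.803%, and Rora in 4.73% and 4.01% of them. Bhlhe40 was seen in 52.1% and 59.9%, Prdm1 in 7.10% and 7.70%, Maf in 6.51% and 6.90%, and Bcl6 in 1.18% and 4.17%. Macrophages express these 4 genes themselves, so free RNA cannot be told apart from their own there.

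Between libraries, Foxp3 was the only member that passed 1.5-fold with an interval excluding no difference. It was higher in the library labelled Cd4cre, where it reached 114 CPM (111 to 118) against 73.7 CPM (71.0 to 76.4) in the control, or 0.63 (0.56 to 0.71) as a log2 ratio. Ikzf2, its frequent partner in regulatory T cells, stood just under the fold at 90.6 (87.6 to 93.6) and 133 CPM (129 to 138), a log2 ratio of 0.56 (0.49 to 0.62). Of all 11708 genes with at least 50 UMIs over both libraries 5.5% passed the same rule, 3.35% higher and 2.15% lower. The count of 1 of 9 is near this background. The median log2 ratio was 0.14 over the members and -0.03 over all genes. The Foxp3 ratio depends on how cells are weighted, since it was 0.48 as the mean of per-cell CPM and 0.47 with every cell thinned to the same depth, both under the fold. Cells with Foxp3 had a median of 5491 UMIs in the control against 6705.5 in cells without it, and 5380 against 5778 in the other library. Whether this depth gap has a part in the ratio was not tested.

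Seen as shares of cells, Foxp3 had a UMI in 9.58% of thinned control cells (8.76 to 10.5) and in 13.9% of cells of the other library (12.9 to 15.0), a gap of 4.35 percentage points (3.02 to 5.69). The UMIs per cell with Foxp3 were alike, at 1.90 and 1.82. The higher level thus went with a larger share of cells and not with more UMIs in each. Ikzf2 was detected in 14.1% and 17.4% of cells, 3.29 points apart (1.79 to 4.80). Both regulatory members were thus in a larger share of T cells in the library labelled Cd4cre.

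Gata3 was lower in that library, with 240 CPM (235 to 246) against 298 CPM (293 to 304) in the control, or -0.31 (-0.35 to -0.27) as a log2 ratio. Its share of cells was 32.2% and 27.6%, a gap of -4.63 points (-6.52 to -2.74). Tbx21 went the other way, from 24.6 CPM (23.1 to 26.2) to 30.3 CPM (28.4 to 32.3), with shares of 4.73% and 6.04%. The type 2 and type 1 regulators thus differed in opposite directions, each by less than the fold used. Rora was higher in the library labelled Cd4cre, at 246 against 296 CPM (log2 0.27, 0.23 to 0.31) and 33.2% against 38.8% of cells. Maf stood at 259 and 271 CPM (log2 0.06, 0.02 to 0.11), a small gap, against a median of -0.03 over all genes. Bhlhe40, at 796 and 797 CPM, and Prdm1, at 36.7 and 36.9 CPM, had log2 ratios of 0.00 (-0.02 to 0.03) and 0.01 (-0.11 to 0.12). Bcl6 was scarce in both libraries, with a UMI in 73 and 75 thinned cells (1.55% and 1.74%). Its log2 ratio of 0.14 (-0.11 to 0.40) leaves the direction of any difference unresolved at this depth. UMI counts are not scaled to gene length, so these levels compare libraries and not genes.

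**Figure D1:**
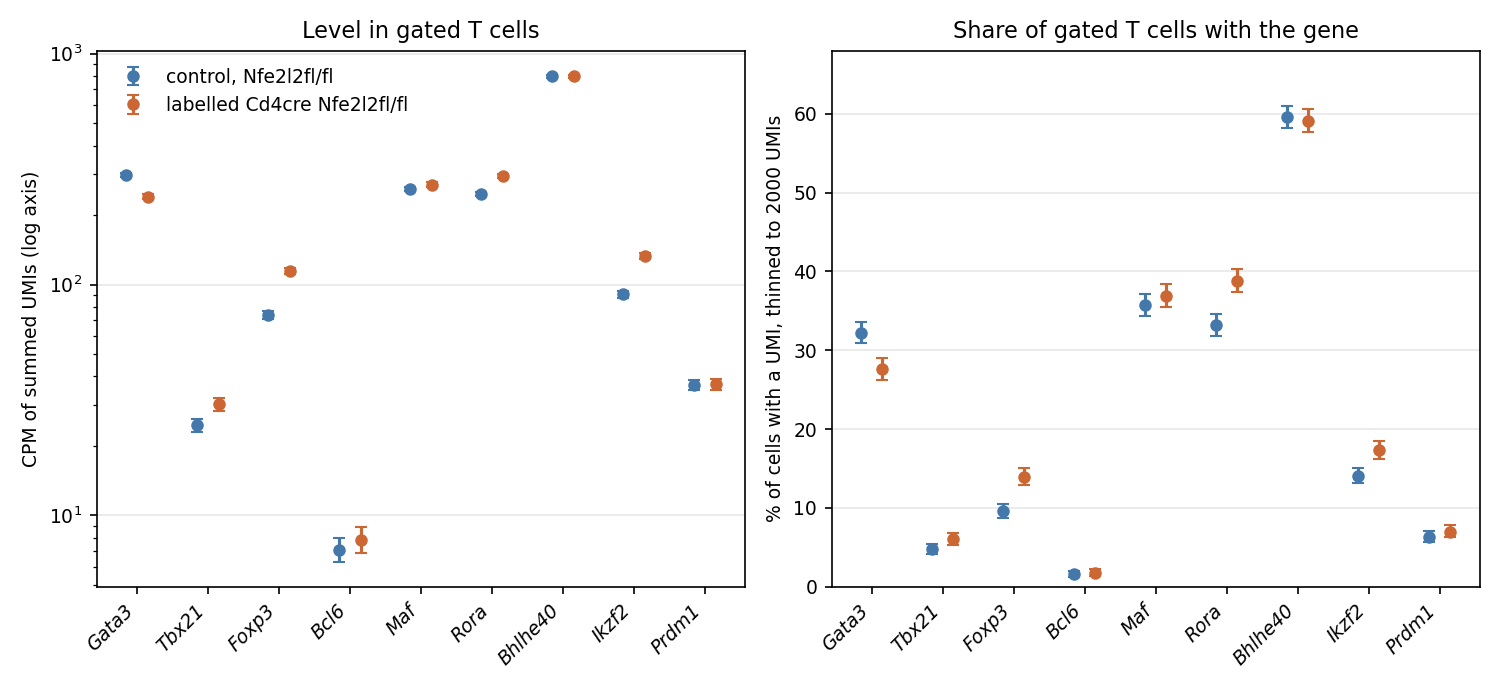
Level of the 9 transcription factor genes in gated T cells (left, CPM of summed UMIs, log axis) and share of cells with a UMI after thinning to 2000 UMIs per cell (right, %). Points are single libraries, blue for the control and orange for the library labelled Cd4cre, with 95% Poisson (left) or Clopper-Pearson (right) intervals. Foxp3 and Ikzf2 lie higher in the orange library and Gata3 lies lower, while Bhlhe40 and Prdm1 have overlapping intervals.

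The reads may in part belong to overlapping genes, since the sources used here do not say whether counting used strand. Foxp3 overlaps Ccdc22 (680 and 543 UMIs in the gated cells) and Ppp1r3f (220 and 152), both on the other strand, and Flicr on its own strand (30 and 36). These are raw counts, out of 38110125 and 30426748 UMIs in the gated cells, so they do not compare the libraries. Whether reads of these genes have a part in the Foxp3 ratio was not tested. Gata3 overlaps 3 gene models, the largest with 243 and 164 UMIs against 11360 and 7313 for Gata3. For Tbx21 and Prdm1 the annotation has no overlapping gene in the matrices.

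Among 35 other transcription factors of T cell differentiation, 1 was higher by the same rule and 1 was lower in the library labelled Cd4cre. Hopx, a homeodomain-only protein found in effector, memory and regulatory T cells, was higher at 151 against 288 CPM (log2 0.94, 0.89 to 0.98). Pparg, a lipid-sensing nuclear receptor active in Th2 cells, was lower at 59.7 against 34.8 CPM (log2 -0.78, -0.88 to -0.67). The 6 of the list with most UMIs stayed inside the fold, with log2 ratios of -0.15 for the AP-1 subunit Junb, 0.10 for Id2, -0.02 for Ets1, 0.24 for Hif1a, -0.14 for Batf and 0.07 for Klf2. The list's median log2 ratio was -0.01 against -0.03 over all genes.

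Of 23 lineage receptors and surface markers 3 were higher and 0 lower by that rule. They were Cxcr3 (52.4 and 85.0 CPM), Il12rb2 (62 and 189 UMIs) and Klrg1 (46.7 and 95.4 CPM). Cxcr3 is a Th1 chemokine receptor, here more frequent both in cells with Tbx21 and in cells with Foxp3. Il12rb2 is a subunit of the IL-12 receptor, and Klrg1 is found on effector and regulatory T cells. Il1rl1, the receptor for IL-33 on Th2 and tissue regulatory T cells, did not differ by the fold (114 and 108 CPM). The cytokines that the lineages make differed too. Il13 stood at 1067 and 698 CPM, Il4 at 116 and 70.9, Il5 at 118 and 91.6 and Il21 at 17.3 and 11.0, all lower in the library labelled Cd4cre and past the fold except Il5. Il17a (924 and 699 CPM) and Il10 (228 and 201) were lower inside the fold, while Ifng (40.1 and 87.2) and Il22 (4.09 and 13.4) were higher and past it. The Il22 level rests on few cells, with a UMI in 19 and 24 thinned cells (0.405% and 0.557%) and 1.68 and 4.67 UMIs in each of them.

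Which of these factors share a cell was asked for all 36 pairs, by setting the number of thinned cells with both genes against the number that the product of their shares gives. The pair that stood apart was Foxp3 with Ikzf2. In the control library 243 cells held both where 63.3 were expected, a ratio of 3.84 (3.38 to 4.33), and in the library labelled Cd4cre 331 held both where 104 were expected, a ratio of 3.18 (2.86 to 3.52). Foxp3 with Prdm1 also passed 1.5 times the expected number in both, with 51 against 28.6 cells (1.79, 1.33 to 2.34) and 69 against 41.9 (1.65, 1.28 to 2.08). Foxp3 with Bhlhe40 was the only pair under 1/1.5 of it in both, with 169 against 268 cells (0.630, 0.540 to 0.730) and 209 against 355 (0.589, 0.514 to 0.672). All 3 pairs thus involve Foxp3. Of 26535645 gene pairs measured the same way, 0.347% were at 1.5 times or more and 0.913% at 1/1.5 or less in both libraries. Of the member pairs, 34 had at least 5 cells expected in both libraries, and their median ratio was 1.12 in each against 1.00 over all pairs. Foxp3 with Ikzf2 passed at every depth tried, from 1000 UMIs per cell to no thinning. The other pairs did not: without thinning the log2 ratio of Foxp3 with Prdm1 was 0.51 and 0.56, and that of Foxp3 with Bhlhe40 was -0.28 and -0.40, all inside the fold.

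The lineage-defining factors Gata3 and Tbx21 were together in fewer cells than expected, 60 against 71.6 in the control (0.838, 0.641 to 1.08) and 49 against 71.8 in the other library (0.683, 0.506 to 0.901). Only the second interval excludes 1, and without thinning the log2 ratios were -0.01 and -0.04, near the expected number. Gata3 with Foxp3 was near the expected number, with 130 against 145 cells (0.896, 0.750 to 1.06) and 171 against 166 (1.03, 0.886 to 1.20). Tbx21 with Foxp3 was seen in 20 and 30 cells where 21.3 and 36.2 were expected. All 3 were detected in 9 and 5 cells, where 6.86 and 10.0 were expected. So few were expected from the shares alone that these counts do not show whether the 3 exclude each other. None of the 3 was detected in 57.7% and 58.1% of cells, which at 2000 UMIs per cell does not show that the cells lack them.

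Smaller deviations were shared by both libraries. Intervals lay above 1 in both for 8 pairs: besides the 2 with Foxp3 above, these were Gata3 with Bhlhe40 (1.13 and 1.16), Foxp3 with Maf (1.19 and 1.30), Foxp3 with Rora (1.25 and 1.17), Maf with Ikzf2 (1.18 and 1.26), Maf with Prdm1 (1.37 and 1.39) and Rora with Bhlhe40 (1.17 and 1.16). Intervals lay below 1 in both for Foxp3 with Bhlhe40 and for Bhlhe40 with Ikzf2 (0.853 and 0.769). Over all gene pairs 0.29% had both intervals above 1 and 0.159% below, but commonly detected genes, as most members are, give narrower intervals than the typical pair. Without the cells that had Foxp3, Maf with Prdm1 stood at 1.47 in both libraries (1.23 to 1.74 and 1.22 to 1.75) and Rora with Bhlhe40 at 1.19 and 1.18, while Bhlhe40 with Ikzf2 moved to 0.973 (0.859 to 1.10) and 0.871 (0.765 to 0.987). Bcl6 with Foxp3 was seen in 14 cells where 6.99 were expected in the control (2.00, 1.10 to 3.36) and in 9 where 10.4 were expected in the other library (0.861, 0.394 to 1.63). Bcl6 had too few cells with Tbx21 (4 and 9) and with Prdm1 (3 and 5) to be read. No member at all was detected in 13.0% of control cells and 11.8% of the others, where 8.02% and 6.98% were expected from the 9 shares.

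**Figure D2:**
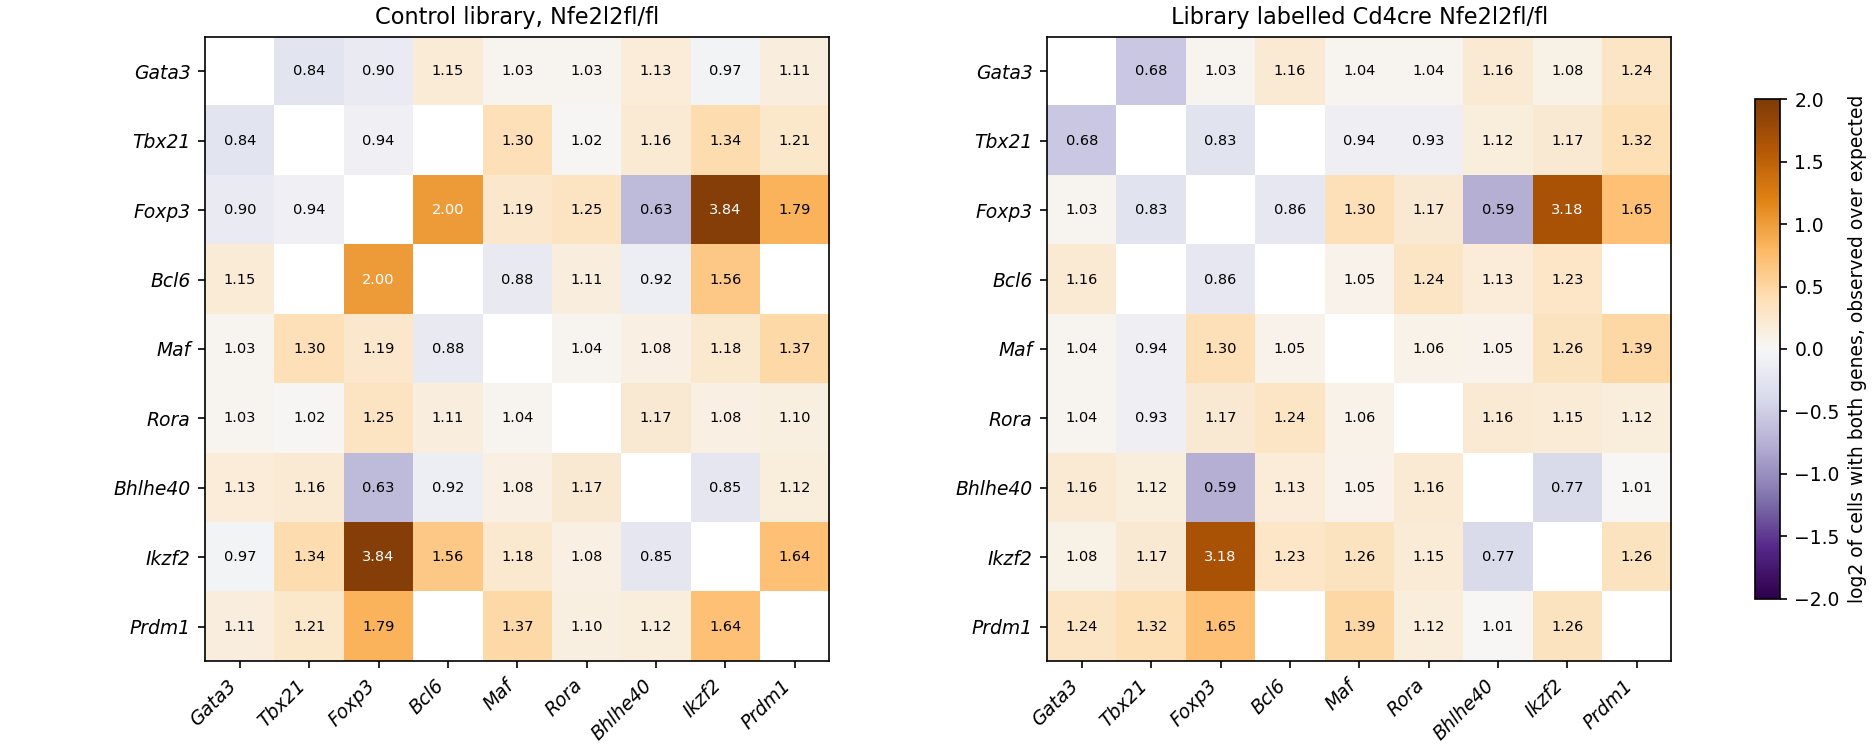
Cells holding both genes of a pair, observed over expected from the product of the 2 shares, in the control library (left) and the library labelled Cd4cre (right), thinned to 2000 UMIs per cell. Printed numbers are the ratios, colour is their log2, and blank squares off the diagonal had fewer than 5 cells expected. Foxp3 with Ikzf2 is the darkest square in both panels (3.84 and 3.18).

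Within cells that had Foxp3 (450 and 600), Ikzf2 was detected in 54.0% (49.3 to 58.7) and 55.2% (51.1 to 59.2), at 487 and 491 CPM. The libraries differed there by a log2 ratio of 0.01 (-0.17 to 0.19). In the remaining cells Ikzf2 was found in 9.85% and 11.2%, at 65.6 and 85.0 CPM, a log2 ratio of 0.37 (0.21 to 0.54). Thinned cells without a Foxp3 UMI still include cells that express the gene, so the second group is not free of regulatory T cells. Il2ra, the high-affinity IL-2 receptor chain of regulatory T cells, was found in 57.3% and 58.5% of cells with Foxp3 and in 14.2% and 14.9% of the others. Bhlhe40 was lower in cells with Foxp3, at 353 against 813 CPM in the control and 320 against 847 CPM in the other library. Prdm1 was higher there, at 61.1 against 32.0 CPM and 65.0 against 35.2 CPM. Gata3 was detected in 28.9% and 28.5% of cells with Foxp3, and its log2 ratio between libraries was -0.16 (-0.44 to 0.13) there and -0.34 (-0.44 to -0.26) in cells without Foxp3. The difference between these 2 values was not tested.

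Cells were next divided by the cytokine RNA they held, with member levels compared between thinned cells with and without a UMI of Il13, Il17a, Ifng or Il10. Il13 marked 1317 control cells and 772 cells of the other library, Il17a 810 and 592, Ifng 257 and 452, and Il10 951 and 735. The call needed a 1.5-fold difference in the same direction in both libraries. Cells with Il13 were deeper before thinning (median 8953 against 5868 UMIs in the control, 8069 against 5376 in the other), as were cells with Il17a (7491 against 6413.5, and 6665.5 against 5612). Cells with Ifng were shallower (5641 against 6646, and 5059.5 against 5834). Thinning equalises the UMIs compared, and whether the state behind a deeper cell has a part was not tested.

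Cells with Il13 had more Gata3 and more Bhlhe40, and less Foxp3, Ikzf2 and Tbx21. Gata3 stood at 538 CPM in control cells with Il13 and at 183 CPM in those without, a log2 ratio of 1.55 (1.44 to 1.67), and at 523 and 157 CPM in the other library, a ratio of 1.73 (1.60 to 1.86). Its share of cells was 54.0% against 23.8% and 51.6% against 22.4%. Gata3 was thus far from absent in cells without Il13. Bhlhe40 stood at 1025 against 669 CPM and at 1222 against 675 CPM, or 0.61 (0.54 to 0.68) and 0.86 (0.78 to 0.93) on the log2 scale. That call was lost with a gate adding Cd4, at 1000 and 4000 UMIs, without thinning and in cells without Foxp3, where the control value fell to 0.52 at the lowest. Foxp3 was found in 1.59% of Il13 cells and 12.7% of the rest in the control, and in 1.30% and 16.7% in the other library. Ikzf2 was lower by a log2 ratio of -1.77 (-2.08 to -1.47) and -1.98 (-2.36 to -1.62), and Tbx21 by -0.63 (-1.11 to -0.18) and -1.19 (-1.83 to -0.60). The control value of Tbx21 is close to the fold and ran from -0.70 to -0.28 over the alternatives, so its call did not hold under all of them. Maf, Rora, Prdm1 and Bcl6 stayed inside the fold. Of 9855 genes 3.41% were called higher and 8.72% lower by the same rule, against 2 and 3 of the 9 members.

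Rora and Bhlhe40 were the members higher in cells with Il17a, the Th17 cytokine. Rora stood at 375 against 219 CPM in the control and at 446 against 276 CPM in the other library, log2 ratios of 0.77 (0.64 to 0.91) and 0.69 (0.55 to 0.83). Bhlhe40 had ratios of 0.64 (0.56 to 0.72) and 0.64 (0.55 to 0.72). Both stand close to the fold: at 4000 UMIs per cell and without thinning neither passed, and Bhlhe40 did not pass with a gate adding Cd4 or in cells without Foxp3, with lowest values of 0.43 and 0.44 for Bhlhe40 and 0.59 and 0.48 for Rora. Maf, with 0.64 (0.51 to 0.77) and 0.47 (0.32 to 0.62), and Prdm1, with 0.66 (0.28 to 1.03) and 0.55 (0.13 to 0.94), passed the fold only in the control. Gata3 was lower at 159 against 308 CPM and 150 against 235 CPM. Foxp3 (-2.13 and -1.96) and Ikzf2 (-1.29 and -1.28) were lower as well, and Bcl6 passed the fold at -1.06 and -0.94 with both intervals including 0. By the same rule 3.49% of genes were higher and 5.23% lower, against 2 and 4 members.

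Tbx21 alone was higher in cells with Ifng, the cytokine whose gene T-bet activates. It stood at 83.7 against 23.8 CPM in the control, a log2 ratio of 1.82 (1.31 to 2.29), and at 92.9 against 27.6 CPM in the other library, a ratio of 1.75 (1.37 to 2.12). A Tbx21 UMI was seen in 13.6% and 15.7% of cells with Ifng and in 4.21% and 4.90% of those without. Gata3 was lower by -0.92 (-1.26 to -0.59) and -1.08 (-1.38 to -0.79), and Foxp3 by -2.81 and -3.53. Ikzf2 differed between libraries: cells with Ifng had 93.4 CPM against 107 in those without in the control (-0.19, -0.64 to 0.23) and 48.7 against 152 CPM in the library labelled Cd4cre (-1.65, -2.12 to -1.21). These intervals do not overlap, and the difference was not tested over mice. Over the alternatives the control value ran from -0.73, with another random thinning draw, to 0.44, in cells without Foxp3, and the other from -2.14 to -1.17. Genes called over the whole matrix were 2.85% higher and 5.4% lower, against 1 and 2 members.

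The broadest set went with Il10, where 5 of the 9 members were higher and 0 lower. Maf stood at 458 against 231 CPM in the control and at 520 against 234 CPM in the other library, log2 ratios of 0.99 (0.87 to 1.11) and 1.15 (1.03 to 1.28). Prdm1 was higher by 0.79 (0.44 to 1.14) and 0.94 (0.58 to 1.29), and Gata3 by 0.77 (0.65 to 0.89) and 0.92 (0.77 to 1.06). Foxp3 was found in 15.7% of Il10 cells and 8.04% of the rest in the control and in 25.0% and 11.6% in the other library. Ikzf2 was higher by 0.60 (0.39 to 0.80) and 0.86 (0.68 to 1.05). Bhlhe40, known to restrain Il10, had ratios of -0.02 (-0.10 to 0.06) and 0.02 (-0.07 to 0.11). Over all genes 3.27% were higher and 4.35% lower by the same rule.

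**Figure D3:**
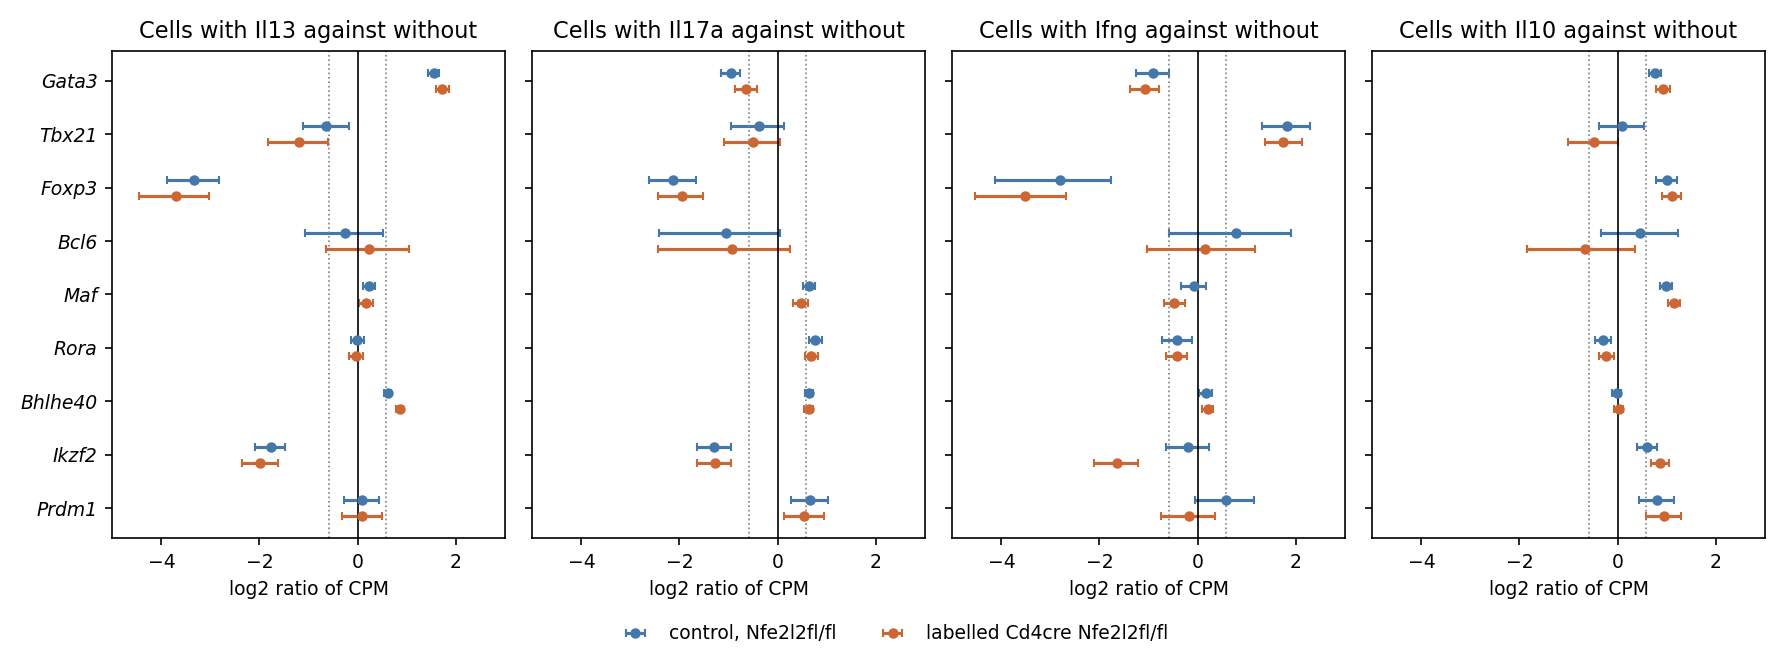
Log2 ratio of each gene's CPM in cells with a cytokine UMI over cells without, for Il13, Il17a, Ifng and Il10 (panels), in the control library (blue) and the library labelled Cd4cre (orange). Bars are 95% conditional binomial intervals, the solid line is no difference and dotted lines are 1.5-fold. Gata3 lies to the right for Il13 and Il10 and to the left for Il17a and Ifng, Tbx21 to the right for Ifng, and Foxp3 to the left for all but Il10.

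The share of cells with a cytokine differed in steps with the UMIs of the member in the same cell. Il13 was present in 19.0% of control cells with no Gata3 UMI, 38.4% with 1, 54.8% with 2 and 64.6% (58.7 to 70.2, 280 cells) with 3 or more. In the library labelled Cd4cre the same steps were 12.0%, 24.5%, 41.6% and 61.8% (54.2 to 69.0, 178 cells). The libraries thus lay apart at 0, 1 and 2 UMIs, and their intervals overlapped at 3 or more. Il10 by Maf went from 14.5% with no UMI to 40.4% with 3 or more in the control and from 10.6% to 39.5% in the other library. Il17a by Rora went from 13.3% to 30.2% and from 10.5% to 23.1%. Il13 by Bhlhe40 went from 16.1% to 39.3% and from 8.18% to 30.8%. Ikzf2 ran the other way: Il13 was in 30.5%, 15.7%, 9.70% and 2.50% of control cells with 0, 1, 2 and 3 or more Ikzf2 UMIs, and in 20.1%, 9.83%, 5.49% and 0% of the others, where by the same limit 0 of 116 cells allows up to 2.59%. Il10 by Foxp3 had a single step, from 18.9% with no UMI to 31.0% with 1 and 34.0% with 3 or more in the control, and from 14.9% to 30.9% and 28.1% in the other library. Ifng by Tbx21 was in 4.96% of control cells with no UMI, in 31 of 194 with 1 and in 2 of 26 with 2. In the other library it was in 9.41%, in 60 of 226 (26.5%, 20.9 to 32.8) and in 9 of 31 (29.0%, 14.2 to 48.0). With 3 or more UMIs it was in 2 of 2 and 2 of 3 cells, too few to read. Neither library thus resolves a step beyond 1 UMI at this depth.

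**Figure D4:**
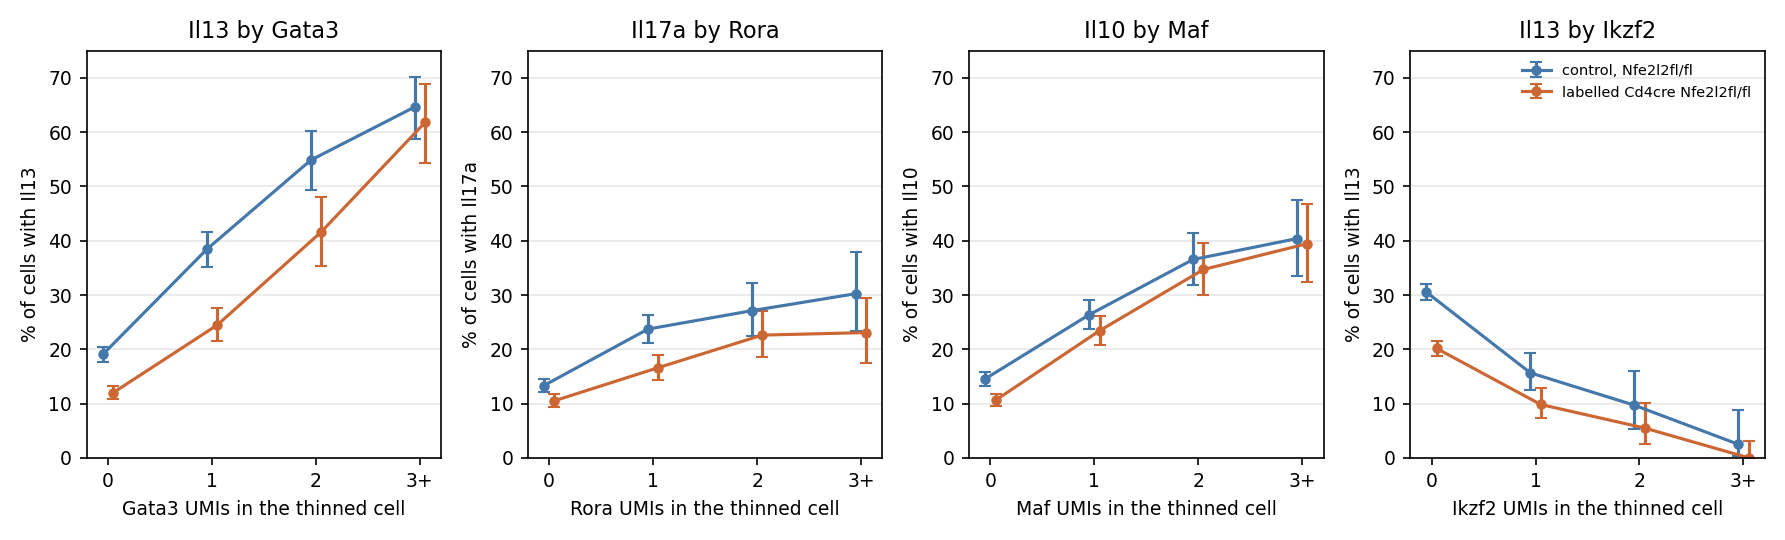
Share of thinned T cells with a cytokine UMI (%) by the number of UMIs of a transcription factor gene in the same cell, for Il13 by Gata3, Il17a by Rora, Il10 by Maf and Il13 by Ikzf2, with Clopper-Pearson intervals. Blue is the control library and orange the library labelled Cd4cre. The first 3 panels climb, with Il13 by Gata3 reaching 64.6% and 61.8%, and the last descends to 2.50% and 0%.

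Cells were then sorted into classes by which of the 4 cytokines they held alone or together. Gata3 was highest in cells with both Il13 and Il10 (335 and 183 cells), at 754 and 822 CPM, against 492 and 455 CPM in cells with Il13 only and 273 and 216 CPM in cells with Il10 only. In cells with none of the 4 it stood at 194 and 168 CPM, and in those with Il17a only at 95.9 and 104 CPM. Within the Il13-only class the libraries differed in Gata3 by a log2 ratio of -0.11 (-0.29 to 0.06), and within the Il13 and Il10 class by 0.13 (-0.08 to 0.33). Those 2 classes made up 16.4% and 7.13% of control cells and 10.5% and 4.25% of cells in the library labelled Cd4cre. Of the classes without Il13, Gata3 was lower by -0.21 (-0.36 to -0.07) in cells with none of the 4 and by -0.34 (-0.64 to -0.04) in those with Il10 only. Intervals included 0 in cells with Ifng only (-0.52, -1.05 to 0.01), Il17a only (0.12, -0.34 to 0.58) and both Il17a and Il10 (0.06, -0.77 to 0.88). A lower Gata3 level in the library as a whole thus went with smaller classes of Il13 cells. It also went with lower levels in cells with none of the 4 and with Il10 only. No difference was resolved within the Il13 classes or in the classes with Il17a or Ifng only and with Il17a and Il10.

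Rora was highest in the Il17a-only class (397 and 497 CPM) and lowest in the Il13 and Il10 class (152 and 210 CPM). Its log2 ratio between libraries was above 0 in 7 of the 8 classes, with 0.37 (0.25 to 0.49) in cells with no cytokine of the 4 and 0.33 (0.11 to 0.54) in the Il17a-only class. Among these 7, intervals included 0 in the Ifng-only class (0.29, -0.12 to 0.71) and in the Il17a and Il10 class (0.18, -0.26 to 0.63). The exception, other combinations, had -0.06 (-0.43 to 0.31). Tbx21 was highest in the Ifng-only class, at 87.6 and 107 CPM. That class held 3.77% of control cells and 8.47% of the others. Maf was highest in cells with Il17a and Il10, at 593 and 587 CPM. Foxp3 was highest in cells with Il10 only, where 30.9% and 41.9% of cells had it, and Ikzf2 was found there in 30.2% and 39.8%. In the Ifng-only class Ikzf2 stood at 93.2 CPM in the control and 35.6 CPM in the other library, a log2 ratio of -1.39 (-2.19 to -0.60). It was above 0 in cells with none of the 4 cytokines (0.36, 0.20 to 0.51). Bhlhe40 ran from 553 CPM in cells with none of the 4 to 1191 CPM in the Il17a-only class of the control, and from 465 CPM in the Il10-only class to 1351 CPM in other combinations in the library labelled Cd4cre.

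Cells with Il10 were of more than 1 kind by these factors. Of them 15.7% in the control and 25.0% in the library labelled Cd4cre had Foxp3, 39.2% and 29.0% had Il13 and no Foxp3, and 45.1% and 46.0% had neither. Maf was higher in all 3 kinds than in cells with neither Il10 nor Foxp3 (227 and 224 CPM): 416 and 576 CPM with Foxp3, 410 and 444 with Il13, and 515 and 538 in the rest. Gata3 was high only beside Il13, at 721 and 789 CPM, against 174 and 193 CPM in Il10 cells with Foxp3 and 246 and 194 in the rest. Ikzf2 was high beside Foxp3 (483 and 451 CPM) and stood at 49.6 and 70.4 CPM beside Il13. In the remaining Il10 cells Ikzf2 was at 111 CPM (89.6 to 135) in the control and 201 CPM (169 to 238) in the other library. Prdm1 stood at 51.3 to 57.0 CPM over the 3 kinds in the control and at 62.1 to 73.4 CPM in the other library, against 27.4 and 30.4 CPM in cells with neither Il10 nor Foxp3. Cells with Foxp3 and no Il10 had as much Prdm1 (63.1 and 61.3 CPM), with less Maf (282 and 311 CPM) than cells with both.

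**Figure D5:**
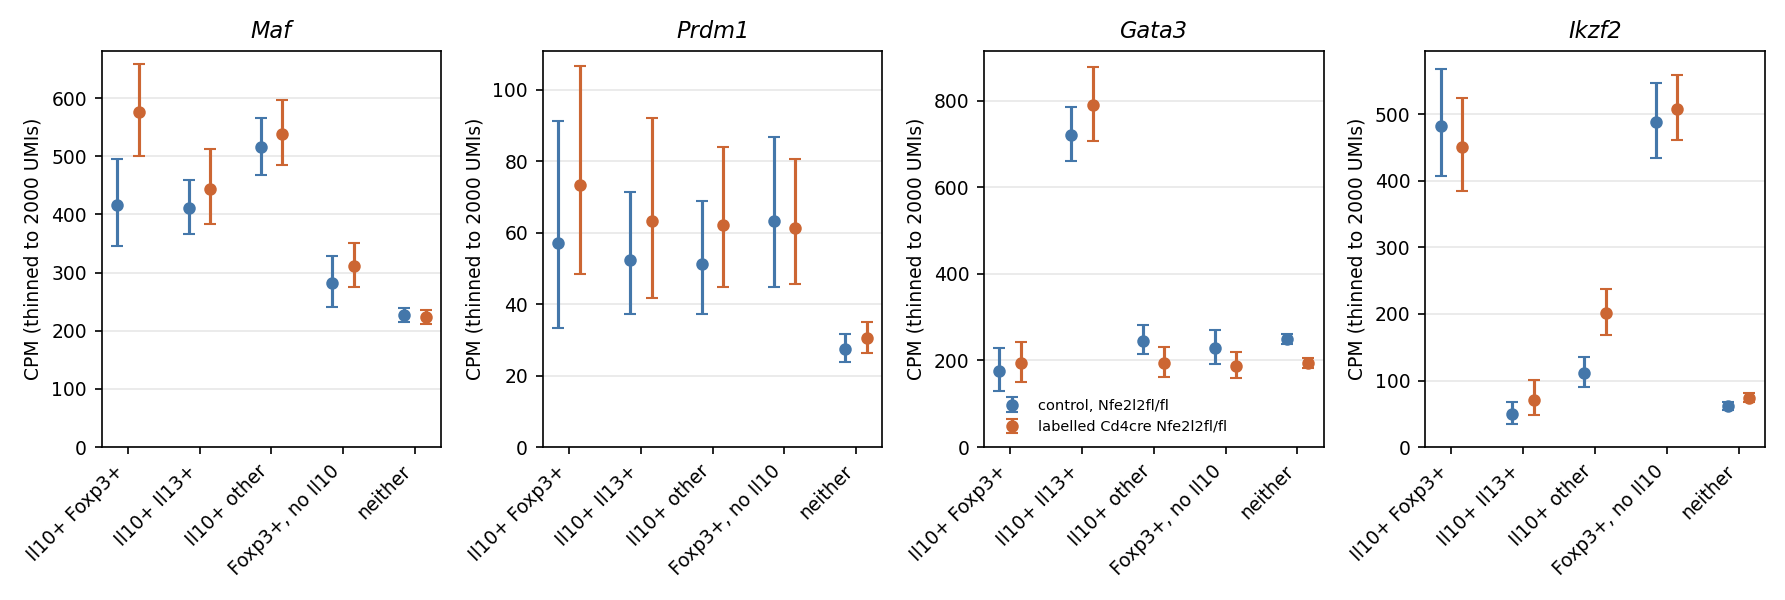
CPM of Maf, Prdm1, Gata3 and Ikzf2 after thinning in cells grouped by Il10, Foxp3 and Il13, with 95% Poisson intervals, in the control library (blue) and the library labelled Cd4cre (orange). Each axis starts at 0 and has its own range. Maf is above the neither group in all 3 kinds of Il10 cells, Gata3 in the Il13 kind only (721 and 789 CPM), and Ikzf2 is highest where Foxp3 is present.

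For each member 3 genes with a high phi are listed, out of 6600 genes present in at least 2% of cells. Phi is the correlation of detection over thinned cells, and the lower of the 2 libraries set the order. For Gata3 and Ikzf2 the list missed a gene with a higher phi, named below. The other lists may thus also not hold the top 3. Phi describes 4696 and 4307 cells of 2 libraries that share depth, so weak values are not findings. Foxp3 was listed with Tnfrsf9, the activation receptor 4-1BB (0.45 and 0.44), then Ikzf2 (0.37 and 0.40) and Klrg1 (0.35 and 0.34). Ikzf2 was listed with Tnfrsf9 (0.30 and 0.36), Lrrc32, which encodes the TGF-β docking protein GARP (0.25 and 0.25), and Rln3 (0.27 and 0.22). Foxp3 is missing from that list, though phi is the same in both directions and its 0.37 and 0.40 with Ikzf2 are above those of Tnfrsf9. Gata3 was listed with Il1rl1 (0.23 and 0.20), Plac8 (0.17 and 0.18) and Fgl2 (0.15 and 0.17). Il13 is missing from that list, though its phi with Gata3 is above that of Il1rl1 in both libraries. Gata3 was in 54.0% of control cells with Il13 against 23.8% without, and in 51.6% against 22.4% in the other library. Tbx21 was listed with Nkg7, a cytotoxic granule protein (0.13 and 0.18), Ifng (0.10 and 0.14) and Ctsd (0.07 and 0.09). Bhlhe40 went with Bcl2a1b (0.23 and 0.23), Il13 (0.22 and 0.21) and Hilpda (0.25 and 0.21). Maf went with the checkpoint receptor Ctla4 (0.20 and 0.19), Il10 (0.19 and 0.22) and Tigit (0.17 and 0.18). Rora went with S100a4 (0.16 and 0.17), Bhlhe40 (0.15 and 0.15) and Furin (0.14 and 0.13), and Prdm1 with Capg (0.09 and 0.11), Il10 (0.07 and 0.08) and Ctla4 (0.09 and 0.07). For Bcl6 no listed gene passed 0.05 in both libraries, with Phc2 (0.04 and 0.04), Mycbp (0.04 and 0.05) and Sh3rf1 (0.04 and 0.04).

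Receptors known to go with each lineage were set beside their factor. Il1rl1 was present in 24.9% of control cells with Gata3 and 7.98% of those without, and in 22.8% and 8.05% in the other library, log2 ratios of CPM of 1.82 (1.63 to 2.01) and 1.67 (1.47 to 1.87). Of the chemokine receptors known from Th2 cells, Ccr8 was in 47.5% of cells with Gata3 against 36.5%, and in 44.1% against 31.7%. Ccr4 was not higher, with 6.21% against 8.17% in the control (-0.37, -0.70 to -0.05) and 5.97% against 6.16% in the other library (-0.06, -0.44 to 0.32). Cxcr3 was in 20.7% of cells with Tbx21 against 10.0%, and in 24.6% against 14.6%. Ccr6, a receptor of Th17 cells, was in 5.13% of cells with Rora against 2.33% and in 5.39% against 2.20%. Ccr8, Cxcr3 and Ccr6 were not particular to these factors, as cells with Foxp3 also had them more often than the rest. There Ccr8 was in 47.6% against 39.2% and in 47.3% against 33.2%, and Cxcr3 in 16.7% against 9.87% and in 24.7% against 13.6%. Ccr6 was in 4.89% of cells with Foxp3 against 3.09% and in 5.50% against 3.10%. Cells with Foxp3 had Il1rl1 in 26.7% and 22.2%, against 12.0% and 10.5% of the rest, and Tnfrsf18, the co-stimulatory receptor GITR, in 79.6% and 78.5% against 42.1% and 42.6%. Klrg1 was in 29.3% of control cells with Foxp3 and 37.2% of those in the library labelled Cd4cre, against 2.85% and 6.61% of the rest. Hopx was in 48.7% and 59.7% of cells with Foxp3, against 17.7% and 28.3%. Klrg1 and Hopx, both called between libraries, thus had the higher share in the library labelled Cd4cre on either side of the Foxp3 split.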

How the data were processed

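Lung CD4+ cells were measured in 2 single-cell libraries prepared by the 10x Genomics 5' method, version 2, per the labels' protocols. The deposited matrices hold raw UMI counts per gene and barcode, and the other deposited files hold gene names and barcodes. Cell Ranger 4.0.0 made them, per the file headers and the submitters' processing notes, which name the build GRCm38. The annotation and strand setting were not given in the sources used here. GENCODE mouse release 21 held 32158 of the 32285 IDs. Totals were 41391255 and 38744058 UMIs over 5729 and 6808 barcodes.

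Groups came from the sample titles. Analysis used Python 3.11.15 with numpy 2.4.6 and scipy 1.17.1, and the statistics were tested on simulated data. The Lyz2 condition removed 3.43% and 5.26% of Cd3-positive cells. Levels between libraries are CPM of summed UMIs. Shares, pairs, cytokine comparisons and cytokine classes used cells thinned without replacement to 2000 UMIs, leaving out 92 and 102 shallower cells. Intervals are exact Poisson for CPM, Clopper-Pearson for shares, conditional binomial for ratios and Newcombe for differences of shares. UMIs of 1 cell are not fully independent, so intervals cover counting error only. No doublet caller was run, so doublets are taken as present and can add cells with both genes of a pair. An alternative left out the deepest 5% of cells. Genes were called at 1.5-fold, with an interval excluding 0 between libraries, or in both libraries for cytokines and pairs. The background was genes with at least 50 UMIs over both libraries (library ratios) or 20 thinned UMIs in each library (cytokines), and pairs of 8399 genes in at least 1% of cells of both libraries with at least 5 expected cells. All members, the 3 genes listed by phi for each, listed transcription factors past the fold or among the 6 with most UMIs, receptors known to go with a member and the listed cytokines could be named. Members and lists were chosen with earlier results of these data known. Alternatives covered the cell filter, gate, depth, scaling, thinning, cytokine cutoff and cells without Foxp3.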

Additional observations from a re-analysis of the deposited data

Results flagged for a closer look

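In 5 comparisons of cells with and without a cytokine UMI a member had opposite signs in the libraries, given here as log2 ratios for the control and then the library labelled Cd4cre. In cells with Il13, Bcl6 had -0.25 and 0.24. Prdm1 in cells with Ifng had 0.58 and -0.17. In cells with Il10, Tbx21 had 0.088 and -0.49, Bcl6 had 0.47 and -0.66, and Bhlhe40 had -0.020 and 0.022. Each of these intervals includes 0, and with 1 library per group the differences were not tested.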

How the results depend on the processing

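No paired analysis was possible because only 1 library stands for each group. Over the alternatives, 90 of 99 library ratios, 812 of 847 pair ratios and 834 of 926 cytokine ratios stayed within the 95% interval of the reported value, and 0 of the called members and pairs changed sign. Values past the fold in 1 library that did are scarce ones with Bcl6: Tbx21 with Bcl6 (log2 0.99, down to -0.70), Bcl6 with Prdm1 (-0.63, up to 0.87), Bcl6 with Ikzf2 (0.64, down to -0.08) and Bcl6 in cells with Ifng (0.79, down to -0.26). The count of members at 1.5-fold between libraries, 1 as reported, was 2 (Foxp3 and Ikzf2) with a gate adding Cd4 and no Cd8 and with median-of-ratios scaling, and 0 with the mean of per-cell CPM and with thinned UMIs. The 2 pairs above 1.5 times became 1 at 1000 and 4000 UMIs and without thinning, 0 in cells without Foxp3, and 3 with another random draw (adding Ikzf2 with Prdm1). The 1 pair below became 0 at 4000 UMIs, without thinning and in cells without Foxp3. The 2 members higher with Il13 became 1 (Gata3) with the Cd4 gate, at 1000 and 4000 UMIs, without thinning and in cells without Foxp3. The 2 higher with Il17a became 1 with the Cd4 gate (Rora), 1 at 4000 UMIs and without thinning (Prdm1), and 3 (adding Prdm1) at 1000 UMIs, without the deepest cells and with another draw. The 3 lower with Il13 ran from 2 to 4 and the 4 lower with Il17a fell to 3. The 2 lower with Ifng became 1 at 1000 UMIs (Foxp3) and in cells without Foxp3 (Gata3), and 3 with another draw (adding Ikzf2). The 5 higher with Il10 became 3 at 4000 UMIs (Gata3, Foxp3 and Maf) and 3 in cells without Foxp3 (Gata3, Maf and Prdm1). Cells without Foxp3 leave that gene out of the list by construction, and the cause of the other changes was not tested. Leaving out cells whose barcode occurs in both libraries was chosen after seeing the data and changed no count. Depth limits Bcl6 most, with 73 and 75 thinned cells.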
